A study of Mus musculus with 2 samples.

Results

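A set of 9 transcription regulators known to restrain osteoclast formation was followed in mouse bone marrow-derived macrophages treated with RANKL: Maf, Bcl6, Id1, Id2, Id3, Rbpj, Hes1, Cebpa and Cebpb. They were taken by gene symbol from the deposited table, in which 9 of 9 had a row among 26037 genes, and the interferon regulatory factors were left out. Marrow cells of C57BL/6 mice aged 6 to 8 weeks were first kept with M-CSF (5 ng/ml, 10% serum in the medium), and the non-adherent cells then spent 3 days in M-CSF at 30 ng/ml. The control and the MMP9 KO cells of the same strain both received RANKL, the cytokine that turns macrophages into bone-resorbing osteoclasts, for 3 days. RNA with a poly(A) tail was sequenced from 1 control and 1 knockout library, so no test between genotypes was possible and no difference below has a replicate check. The column headings add the letters "NCsh" to the control and "sh" to the knockout. How Mmp9 was removed, by deletion or by silencing, was not given in the sources used here.

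Osteoclasts form from macrophage precursors when RANKL induces NFATc1, and these regulators act against that step in different ways. MAF is a basic leucine zipper factor of macrophages. RBPJ is the DNA-binding factor of the Notch pathway, and HES1 is a repressor made by a classical Notch target gene. BCL6 is a zinc finger repressor that acts on the genes of NFATc1, DC-STAMP and cathepsin K, and the repressor BLIMP1 (gene Prdm1) in turn represses Bcl6. ID1, ID2 and ID3 have a helix-loop-helix but no DNA-binding region, and they hold basic helix-loop-helix partners off DNA. C/EBP beta and C/EBP alpha are basic leucine zipper factors of myeloid genes. C/EBP alpha is also known to favour commitment to the osteoclast lineage, so the name repressor fits it less well.

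Levels are normalised read counts, in which 1 read is worth 0.0248 in control cells and 0.0238 in knockout cells, and they are not divided by gene length. The libraries held 20678441 and 17741432 reads. Parentheses after a fold give its exact 95% interval for counting error only, which treats reads as independent molecules and does not cover variation between cultures. Log2 ratios are of the knockout over the control after adding a pseudocount of 1 to both, which shrinks the ratio of low genes. A gene was compared when its mean over both libraries was at least 1, and it counted as past 2-fold on the log2 ratio with the pseudocount.

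In the library labelled MMP9 KO, Mmp9 was at 3.87 against 139 in the control. The osteoclast markers fixed for the check include Mmp9 itself. The other 9 were lower in 9 of 9 cases, with a summed level of 6685 in control cells and 391 in knockout cells. Calcr (3.03 and 0.190), Oscar (25.1 and 0.261) and Itgb3 (45.8 and 0.475) passed the filter only through the control, so they had to be lower. Of 10 macrophage markers 7 were compared, 5 were higher and 1 was lower, and the sum of all 10 was 1008 and 1363. Among the 5, Fcgr1 had no control read and a knockout level of 11.1, so it passed the filter only through the knockout and had to differ. Mertk and Mrc1, both macrophage markers, were at 0 in the control and at 0.0238 and 0.119 in the knockout. The 10 other marker lists, from monocytes to erythroid cells, had a summed level of 21.8 and 16.3 over 70 genes, 38 of which had no read in either library. Within them the sums of 3 lists went in different directions. Dendritic cell markers summed to 16.2 in control cells and 2.42 in knockout cells, with Itgax 16.9-fold (11.5 to 25.7) and Zbtb46 3.56-fold (2.60 to 4.95) lower. Monocyte markers summed to 3.38 and 11.1, with Cx3cr1 10.9-fold higher (7.69 to 16.0). Cx3cr1 passed the filter only through the knockout and Itgax only through the control, so both had to differ. Granulocyte markers summed to 0.149 and 1.31, most of it Csf3r with 6 and 38 reads and S100a8 with 0 and 13. Among the 38 genes without a read were Elane, Mpo and Ly6g of granulocytes, Cd3e and Cd4 of T cells, Pax5 of B cells, and Col1a1 of stromal cells. In such bulk RNA fewer cells of a type and less RNA per cell cannot be told apart. The osteoclast, macrophage, dendritic cell, monocyte and granulocyte markers moved with every difference given here, and their part in it was not tested.

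Of the 9 regulators, 7 were compared and 2, Id1 and Hes1, were too low. Maf and Rbpj stood at least 2-fold higher in knockout cells, none was lower by that much, and 5 were within 2-fold. Over all 11126 compared genes, 4.00% were higher and 9.58% were lower by at least 2-fold, which makes 13.6% in either direction. The knockout level alone took Maf past the filter, so it had to differ, and the count of 2 of 7 includes it. The median log2 ratio of the 7 was 0.24, beside -0.16 for all compared genes. The members therefore did not move as 1 group: 4 of the 7 ratios were above 0 and 3 were below.

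**Figure D1:**
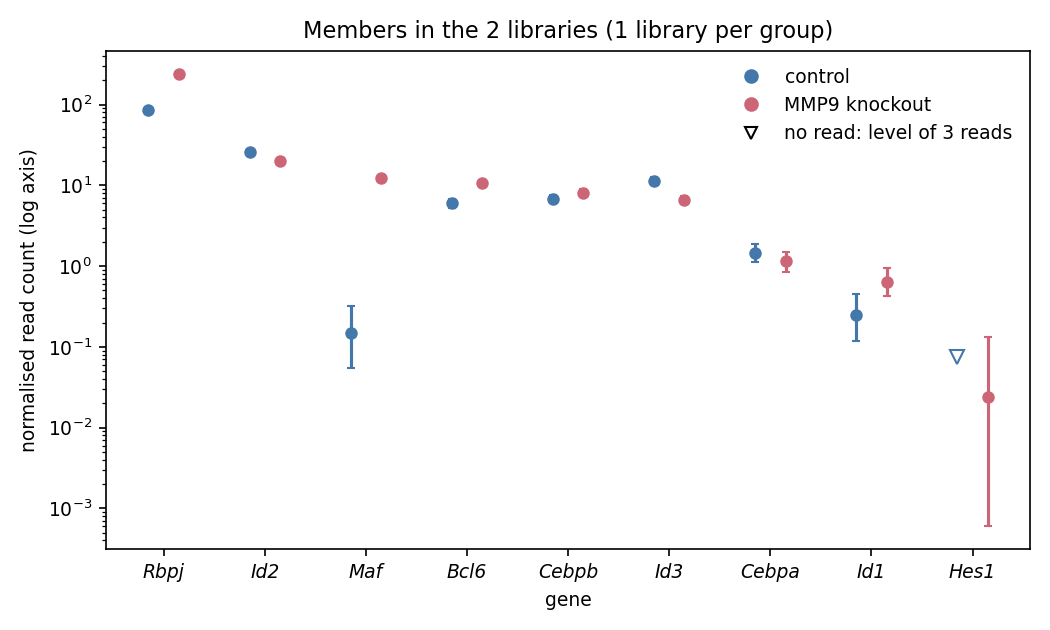
Normalised read count (log axis) of the 9 regulators in the control and the MMP9 knockout library, 1 library each, with bars for the 95% counting interval and an open triangle at the level of 3 reads where there was no read. Maf stands apart between the libraries at 0.149 and 12.2, Rbpj is the highest in both, and Hes1 lies at the lower end.

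Maf was nearly absent from the control and clearly present in the knockout. The control held 6 reads of Maf, a level of 0.149, and the knockout held 514 reads, a level of 12.2. This is an 81.9-fold higher level (37.4 to 224), and the width of the interval comes from the 6 reads. With the pseudocount the log2 ratio was 3.52, the 35th highest of 11126. Maf (ENSMUSG00000055435) lies on the minus strand of chromosome 8, from 115682942 to 115707794 in GRCm38. The noncoding gene Gm15655 overlaps it on the opposite strand, and it was at 0 in control cells and 1.02 in knockout cells. Whether the counting used strand is not given, so reads of the pair cannot be told apart.

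The small MAF genes encode partners without an activation domain. Mafg was 110 and 111, Mafk was 22.8 and 26.1, and Maff was 5.67 and 2.80, a 2.02-fold lower level (1.61 to 2.55) that lay within 2-fold with the pseudocount. Bach1, whose product pairs with small MAF proteins, was 43.2 and 39.6. So a large difference stood at Maf, and the libraries were close for Mafg and Mafk. The genes nearest to Maf in their 2 levels, by distance on log2 axes over 2 libraries, were Gpr65 (0.199 and 12.6, distance 0.42) and Cxcl2 (0.174 and 22.8, distance 0.93).

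Rbpj was the most abundant of the 9 in both libraries, and it was higher in the knockout. Its level was 84.8 in control cells (3414 reads) and 238 in knockout cells (10033 reads), which is 2.81-fold higher (2.70 to 2.92). The log2 ratio of 1.48 was above that of 97.6% of the compared genes. Rbpj made up 62.1% of the summed level of the 9 regulators in the control and 79.995% in the knockout, on the scale without length. Rbpj (ENSMUSG00000039191) is on chromosome 5 of GRCm38, plus strand, between 53466152 and 53657362. A processed pseudogene, Rbpj-ps3 (Rbpsuh-rs3 in the table), shares 93.2% of its 31-base words with Rbpj transcripts. It was listed at 42.8 in control cells and 115 in knockout cells, 2.69-fold higher (2.55 to 2.85). How reads that match both were assigned is not given, so the level of Rbpj is uncertain. The sum of both was 128 and 354, or 2.77-fold, so the fold was about the same with the copy included. In the same search as for Maf, the genes nearest to Rbpj in their 2 levels were Asns (83.9 and 210, distance 0.18) and Ctage5 (105 and 204, distance 0.38).

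The bases before 3 of the transcription starts are shown because RBPJ, BCL6 and C/EBP alpha bind DNA and are known or proposed to act on their own genes. They are from RefSeq promoter windows on GRCm38.p6, written 5′ to 3′ on the strand of the gene, cut where a GENCODE exon begins, and capitals mark a match to the motif of the gene's own factor on either strand. Windows were found for 6 of the 9 regulators. Rbpj and Bcl6 had 2 windows each, and only the first listed of each was used. That of Rbpj lies inside the span of the gene given above, downstream of its first base. The Rbpj bases are chr5:53590096-53590213 (plus strand), those of Bcl6 chr16:23988853-23989102 (minus strand) and those of Cebpa chr7:35119043-35119292 (plus strand).
Rbpj: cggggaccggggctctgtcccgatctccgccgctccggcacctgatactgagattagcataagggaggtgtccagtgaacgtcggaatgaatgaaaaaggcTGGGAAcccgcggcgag
Bcl6: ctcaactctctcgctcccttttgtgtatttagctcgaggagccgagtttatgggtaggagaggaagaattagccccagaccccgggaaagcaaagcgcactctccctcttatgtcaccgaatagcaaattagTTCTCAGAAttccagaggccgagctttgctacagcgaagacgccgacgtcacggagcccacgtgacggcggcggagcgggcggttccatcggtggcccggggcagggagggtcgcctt
Cebpa: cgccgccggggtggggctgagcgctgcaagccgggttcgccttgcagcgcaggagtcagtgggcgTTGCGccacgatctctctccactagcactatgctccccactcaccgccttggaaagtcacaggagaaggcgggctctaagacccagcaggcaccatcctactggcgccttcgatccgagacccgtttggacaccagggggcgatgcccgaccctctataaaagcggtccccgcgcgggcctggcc
The RBPJ core TGGGAA occurs 1 time in the 118 Rbpj bases, 149 to 144 bases before the RefSeq start, and 11.1% of 32851 windows of that length hold a match. The BCL6 core TTCNNNGAA, which STAT factors also bind, occurs 1 time in the 250 Bcl6 bases, 118 to 110 bases before the start, and 7.02% of all windows hold it. The C/EBP core TTGCNNAA occurs 0 times in the windows of Cebpa and Cebpb, against 9.56% of all windows. Its shorter part TTGCG occurs 1 time in the window of Cebpa, 185 to 181 bases before the start, and 0 times in that of Cebpb, against 14.5% of all windows. The C/EBP motifs can overlap each other. A match describes letters, and the libraries hold no measurement of binding at these sites.

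Hes1 had 0 reads in the control, which allows a level of up to 0.0745, and 1 read in the knockout, a level of 0.0238. No fold can be given at this depth. Other genes of the HES and HEY repressors, the readout usually followed for Notch, were equally low: Hes2, Hes3, Hes5, Hes7, Hey1, Hey2 and Heyl had from 0 to 2 reads in each library. Hes6, a family member that acts against HES1, was the exception at 5.84 and 2.66, a 2.19-fold lower level (1.75 to 2.77) that lay within 2-fold with the pseudocount. So the most abundant regulator, Rbpj, stood beside HES and HEY genes that, apart from Hes6, had hardly any read. Whether Notch signalling acted through RBPJ in these cells was not tested. A related repressor gene, Bhlhe40, was high in the control at 122 and low in the knockout at 7.67, 15.9-fold lower (14.2 to 17.8). It was the 1 compared relative of the 11 that passed 2-fold. Among the relatives 10 of 11 were within 2-fold, beside 86.4% of all compared genes, and their median was 0.01.

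Of 47 Notch pathway genes 33 were compared, and the median was -0.24 beside -0.16 for all compared genes. Past 2-fold 1 was higher and 6 were lower, beside 4.00% and 9.58% of all compared genes. Among the receptors Notch2 was 156 in control cells and 101 in knockout cells. Notch1 had 9 and 36 reads, 3.82-fold more in level (1.81 to 9.03), but was too low to be compared at 0.224 and 0.855. Among the ligands Jag1 was 61.7 and 17.0, 3.64-fold lower (3.35 to 3.96). Adam17, one of the enzymes that cut Notch at the cell surface, was 41.1 and 108, 2.62-fold higher (2.48 to 2.77), while Adam10, the main such enzyme, was 87.3 and 99.2. In the gamma-secretase complex that releases the intracellular part, Aph1b was 14.7 and 3.56, 4.12-fold lower (3.44 to 4.96), and its paralog Aph1a was 102 and 85.9. Of the cofactors that RBPJ joins, the coactivator gene Maml1 was 15.5 and 12.99, the corepressor gene Spen was 80.6 and 83.9, and Kdm5a was 48.8 and 57.7. Snw1 was 43.2 and 60.5, 1.40-fold higher (1.32 to 1.49), and the corepressor gene L3mbtl3 was 1.76 and 3.52, 1.99-fold higher (1.49 to 2.68). Dtx2 (2.97-fold), Dtx4 (2.27-fold) and the glycosyltransferase gene Lfng (2.23-fold) were lower as well. The calls of Dtx4 and Lfng ended under each of the 3 scalings below and with centring by GC content, which left 4 lower, and that of Lfng also with a pseudocount of 5. Aes, which encodes a short Groucho-type protein, was 2.70-fold lower (2.50 to 2.92).

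**Figure D2:**
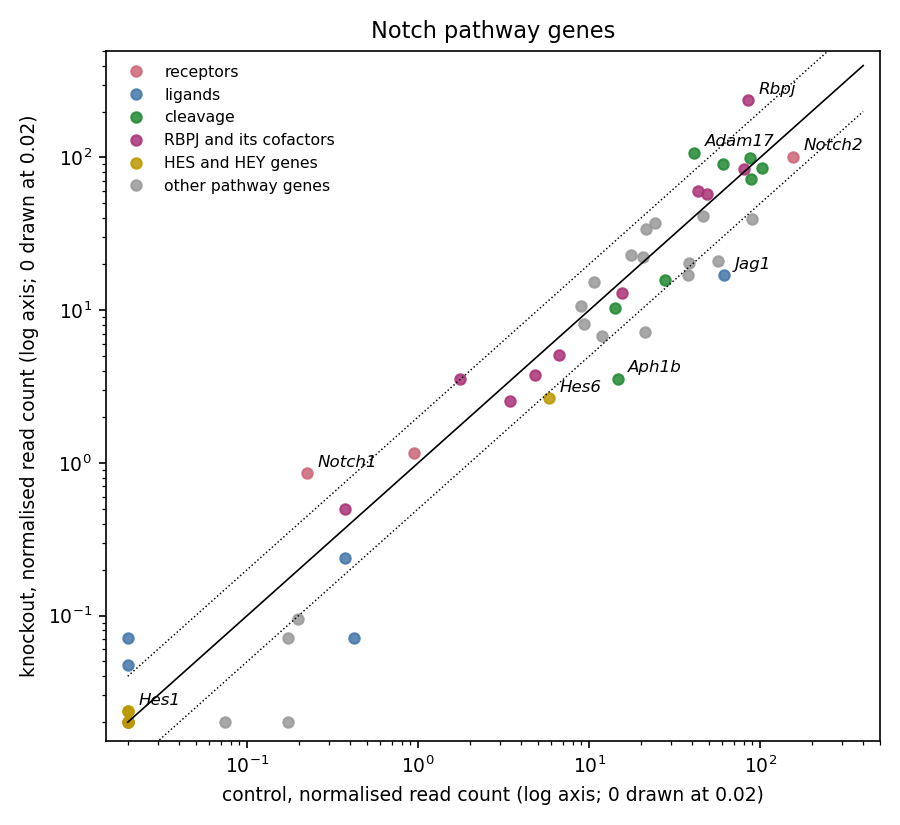
Normalised read count of Rbpj, Hes1, Hes6 and the genes of the Notch pathway list in the control (x, log axis) and the knockout (y, log axis), 1 library each, with 0 drawn at 0.02, a solid line for equal levels and dotted lines for 2-fold. Rbpj and Adam17 lie above the upper dotted line, Jag1 and Aph1b lie below the lower one, and Hes1 stands in the lower left corner.

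Bcl6 was somewhat higher in the knockout but within 2-fold. It was 5.96 in control cells (240 reads) and 10.6 in knockout cells (448 reads), 1.78-fold higher (1.52 to 2.10), with a log2 ratio of 0.74. Relative to the median of all genes its ratio was 0.90, and with both libraries scaled to the same sum it was 1.005, just past 2-fold. Bcl6 (ENSMUSG00000022508) lies on the minus strand of chromosome 16, from 23965052 to 23988852 in GRCm38. Prdm1, whose product BLIMP1 represses Bcl6, was 25.3 and 3.54, 7.14-fold lower (6.01 to 8.54). Irf8, another gene that BLIMP1 represses in osteoclast precursors, was 0.745 and 9.45. Among the genes that BCL6 binds, Nfatc1 was 378 and 177 and Ctsk was 3745 and 42.9. The call of Nfatc1 as lower ended under the 3 scalings and with centring by GC content. Of the 11 genes of this list 10 were compared, and the median was -2.64. Past 2-fold 8 were lower and 1 was higher, beside 9.58% and 4.00% of all compared genes. Most genes of the list are osteoclast genes, and it overlaps the osteoclast markers above.

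Of 19 corepressor genes that BCL6 recruits 18 were compared and 18 were within 2-fold, with a median of -0.05, beside 86.4% of all compared genes within 2-fold. Bcor, which binds the BTB domain of BCL6, was 27.2 in control cells and 16.8 in knockout cells. The corepressor gene Ncor1 was 87.9 and 108, and the deacetylase gene Hdac3, whose product works with it, was 67.9 and 93.7. Hdac7 was too low to be compared.

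The 3 ID genes differed in level and in direction. Id2 was the most abundant, at 25.8 in control cells (1039 reads) and 20.2 in knockout cells (850 reads), 1.28-fold lower (1.17 to 1.40). Id3 was 11.4 (460 reads) and 6.63 (279 reads), 1.72-fold lower (1.48 to 2.01). Id1 was low in both, with 10 reads in control cells and 27 in knockout cells, levels of 0.248 and 0.641, or 2.58-fold higher (1.21 to 5.98). Id4 had no read in either library. Id2 and Id3 had log2 ratios of -0.34 and -0.70, or -0.18 and -0.54 relative to the median of all genes, so both were within 2-fold. Summed, Id1, Id2 and Id3 were 37.5 in control cells and 27.5 in knockout cells.

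Genes of partners of the ID proteins, listed together with other genes linked to such factors, ranged from higher to lower in the knockout. Of 14 genes 13 were compared, and the median was -0.28. Past 2-fold 2 were higher and 4 were lower, beside 4.00% and 9.58% of all compared genes. The calls of Lmo2, Tfeb and Spi1 ended with a pseudocount of 5, which left 1 higher and 2 lower, and those of Tfeb and Spi1 ended with centring by GC content. A minimum mean of 5 left Lmo2 and Tfeb out, and the call of Spi1 ended under each of the 3 scalings below. The E protein genes Tcf3 (22.7 and 14.5), Tcf4 (50.0 and 73.3) and Tcf12 (58.4 and 47.7) were within 2-fold. Per kilobase of the longest transcript, the summed level of the 3 ID genes was 22.3 in control cells and 16.0 in knockout cells, and that of the 3 E protein genes was 22.8 and 21.04. The ratio of ID to E protein level per kilobase was thus 0.977 in control cells and 0.760 in knockout cells. Scaling of a whole library leaves this ratio unchanged, but it was not centred by GC content and has no counting interval. Mitf, an osteoclast factor of the helix-loop-helix leucine zipper class, was 70.5 and 27.6, 2.55-fold lower (2.38 to 2.73). Its relatives Tfec (Tcfec in the table) and Tfeb (Tcfeb) were 5.30-fold (4.15 to 6.84) and 3.62-fold (2.57 to 5.21) lower, and Tfe3 (Tcfe3) was 33.2 in both. Spi1 (Sfpi1), which encodes PU.1, was 98.4 and 47.5. In the other direction Lyl1, a haematopoietic helix-loop-helix factor gene, was 1.96 and 11.5, 5.88-fold higher (4.63 to 7.56), and Lmo2, the gene of a bridging protein for such factors, was 1.29 and 3.73.

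ID genes are classical targets of BMP signalling, which acts through SMAD1 and SMAD5. Of 32 BMP and TGF-beta genes 22 were compared, 0 were higher and 3 were lower past 2-fold, and the median was -0.10, beside 4.00% higher and 9.58% lower over all compared genes. In the BMP arm Bmpr1a was 33.1 and 40.8, Smad1 was 11.9 and 11.0, Smad5 was 37.1 and 44.8, and Smad4 was 36.4 and 34.1. The receptor gene Acvrl1 was 8.90 and 4.70, 1.89-fold lower (1.59 to 2.26), and the coreceptor gene Eng was 4.10 and 1.97, 2.08-fold lower (1.59 to 2.74), both within 2-fold with the pseudocount. The gene of the inhibitory SMAD7 was 4.45 and 2.35, 1.89-fold lower (1.47 to 2.44), and Smad6, of the same class, had 15 and 3 reads and was not compared. With a pseudocount of 0.1 Eng counted as a 4th lower gene of the list. The ligand genes Bmp2, Bmp4, Bmp6 and Bmp7 had no read in either library. The 3 lower genes were the TGF-beta receptor genes Tgfbr1 (378 and 38.4, 9.84-fold, 9.35 to 10.4) and Tgfbr2 (136 and 39.8, 3.41-fold, 3.23 to 3.61) and the ubiquitin ligase gene Smurf1 (46.4 and 11.4, 4.06-fold, 3.67 to 4.50).

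The C/EBP genes were close between the libraries. Cebpb was 6.73 in control cells (271 reads) and 8.12 in knockout cells (342 reads), 1.21-fold higher (1.03 to 1.42). Cebpa was 1.47 (59 reads) and 1.14 (48 reads), 1.29-fold lower (0.863 to 1.92), with an interval that includes 1, and its sign turned when ratios were centred by GC content. Of their relatives Cebpg was 26.5 and 34.8, Atf4 was 160 and 211, and Ddit3, the gene of the inhibitory family member CHOP, was 3.08 and 3.82. Cebpe, a granulocyte factor gene, had 30 and 10 reads.

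Of 18 genes that C/EBP factors activate in myeloid cells 7 were compared, with a median of 2.49. Past 2-fold 4 were higher and 1 was lower, beside 4.00% and 9.58% of all compared genes. Lyz2, the lysozyme gene, was 50.8 and 423, 8.34-fold higher (7.96 to 8.73). Ptgs2, which encodes cyclooxygenase 2, was 3.53 and 24.4, and the chemokine gene Ccl2 was 3.85 and 37.9. Nos2 was 0.199 and 81.1 and passed the filter only through the knockout. Il10, a cytokine gene that MAF is also known to activate, had no read in control cells and 46 in knockout cells, at least 14.7-fold higher, though too low to be compared. Csf2ra, a subunit gene of the GM-CSF receptor, was 21.3 and 8.60, 2.47-fold lower (2.18 to 2.80), a call that ended with a pseudocount of 5, equal sums or centring by GC content. Csf1r was 751 and 564. Many of these genes are induced by other inflammatory factors as well. The list shares Lyz2 and Csf1r with the macrophage markers above, and Elane, Mpo and Csf3r with the granulocyte markers. It is therefore not separate from the marker differences.

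Other DNA-binding restrainers of osteoclast formation had a median of 0.21. Of 9 compared 3 were higher and 0 were lower past 2-fold, beside 4.00% and 9.58% of all compared genes. With a pseudocount of 5 or a minimum mean of 5, Irf8 was the 1 gene left past 2-fold. The higher ones were Irf8 (12.7-fold, 8.74 to 19.0), Gfi1 (0.348 and 2.45, 7.03-fold, 4.01 to 13.3) and Lmo2. Irf8 and Gfi1 passed the filter only through the knockout, so they had to differ. Lmo2 encodes the bridging protein named above, so the word DNA-binding does not describe it. Runx1 was 12.995 and 12.5, Nr4a1 was 7.03 and 6.63, and Zeb2 was 59.8 and 69.4. Nr4a2 was 3.88 and 2.16, 1.79-fold lower (1.38 to 2.35). Klf2 was 0.472 and 0.618 and was too low to be compared.

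**Figure D3:**
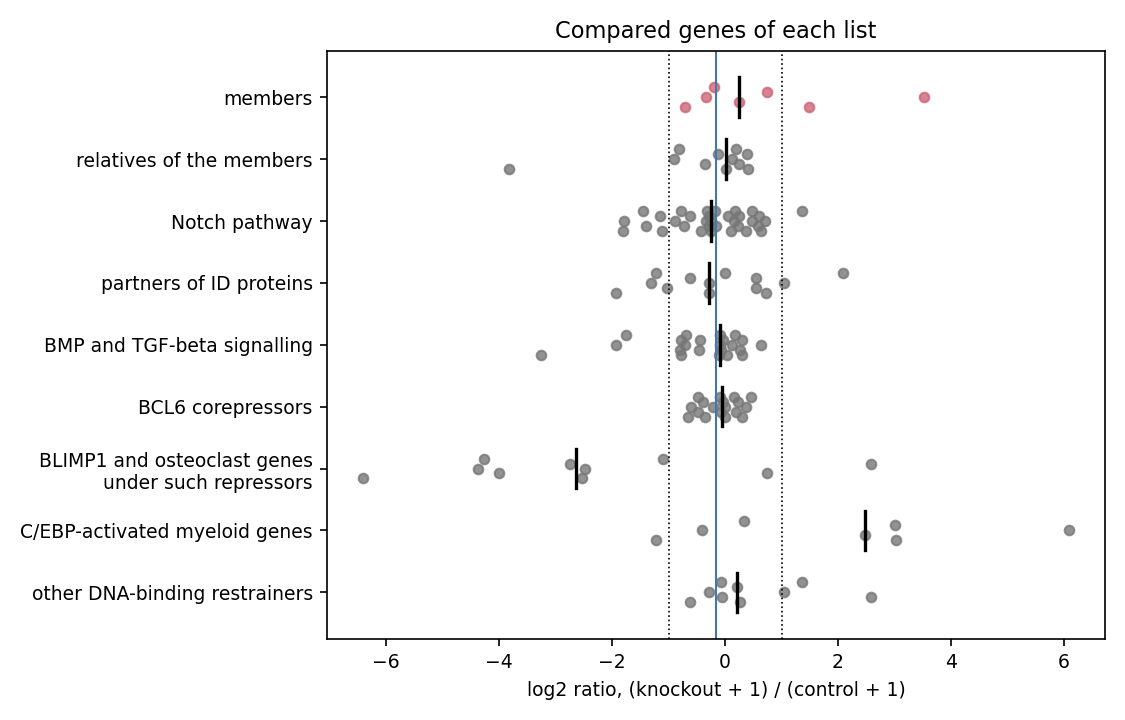
Log2 ratio (knockout + 1 over control + 1, x axis) of each compared gene in the 9 regulators (top row) and in the 8 lists around them, 1 point per gene, with a black bar for the median of each list, a blue line at -0.16 for the median of all compared genes and dotted lines at 2-fold. The regulators spread from -0.70 to 3.52, and the BCL6 corepressors all lie between the dotted lines.

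Divided by transcript length, the order of the regulators differed little between the libraries apart from Maf. In the control the level per kilobase was highest for Rbpj (15.5), followed by Id2 (13.1), Id3 (8.94), Cebpb (4.48), Bcl6 (1.52), Cebpa (0.558), Id1 (0.214), Maf (0.0234) and Hes1 (0). Neighbours in this order had separate counting intervals, except Maf and Hes1. In the knockout Rbpj stood at 43.5 per kilobase and Id2 at 10.3. Cebpb (5.40) and Id3 (5.19) followed, with intervals that overlapped. Bcl6 was at 2.71 per kilobase and Maf at 1.92. Id1 (0.553) and Cebpa (0.434) overlapped again, and Hes1 came last at 0.0162. Maf therefore moved from the 8th to the 6th place, above Id1 and Cebpa, and the distance between Rbpj and Id2 widened. The length is that of the longest GENCODE transcript, and the transcripts in use in these cells are not known.

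Setting the median log2 ratio to 0, scaling by a trimmed mean and scaling to equal sums shifted the knockout upward by 0.16, 0.19 and 0.29 on the log2 scale. The trimmed mean and equal sums acted before the pseudocount, so low genes rose by less. Since all 3 shifts were upward, they could not lower the ratios of Maf and Rbpj. Relative to the median of all genes the ratio of Maf was 3.69 and that of Rbpj 1.64. Over all genes the same scalings gave 562 higher and 788 lower, 572 and 791, and 674 and 684, in place of 445 and 1066, and centring by GC content gave 547 and 682. Log2 ratio and GC content of the transcript had a Spearman rho of -0.31 across the compared genes, whose values are not independent. The GC content was 43.7% for Rbpj and 47.4% for Maf, but 62.6% for Cebpa and 67.2% for Cebpb, and centring moved Cebpa to 0.35 and Cebpb to 0.80.

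**Figure D4:**
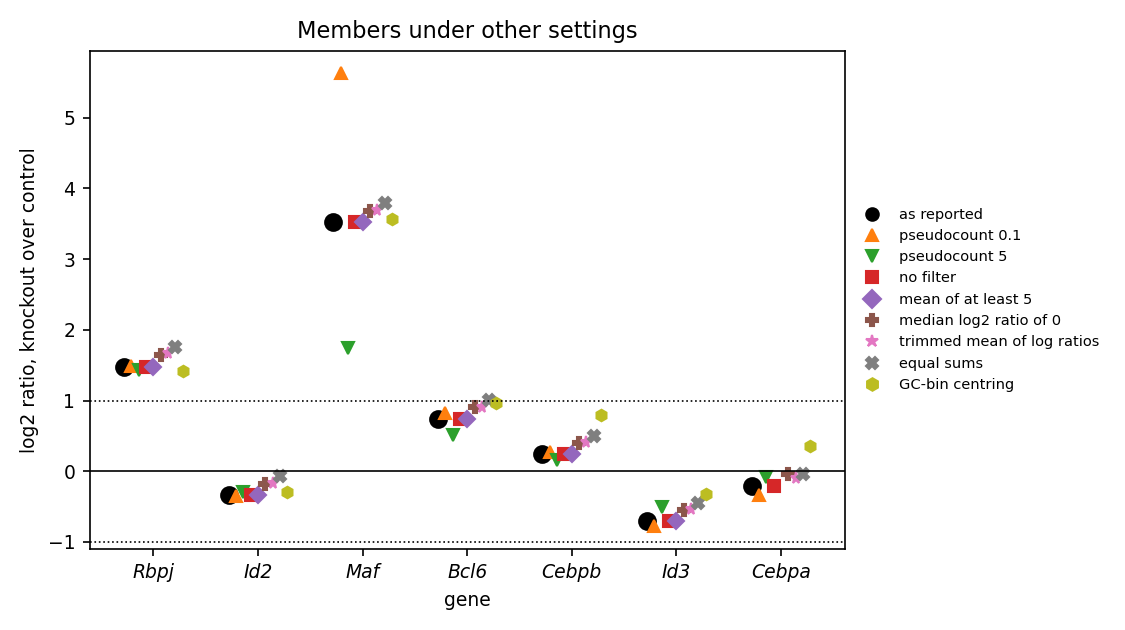
Log2 ratio of the 7 compared regulators (y axis) as reported (black circles) and under 8 other settings (other markers), 1 library per group, with dotted lines at 2-fold. Maf and Rbpj lie above the upper line in all settings, Bcl6 reaches it with equal sums, and Cebpa crosses 0 after centring by GC content.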

How the data were processed

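Reads were aligned with TopHat to the mouse build mm9, per the submitters' processing notes. The deposited file holds log2 values of 26037 genes under a title of normalised RPKM. Its aligner version, counting program, annotation, strand use and normalisation were not given in the sources used here. Converted from log2, 99.99% of values in each library lay within 0.05 of a whole multiple of 1 step, the same for every gene, so they were treated as read counts times 1 factor per library, without length. A gene with no read carried 0.9 of the step and was set to 0. Pseudocount (1), minimum mean (1) and 2-fold threshold were as described in the results. A count of 0 allows 3 reads, a level of 0.0745 (control) or 0.0713 (knockout). Fold intervals are exact binomial (Clopper-Pearson), and bars on levels in the plots are exact Poisson intervals, both at 95% (scipy 1.17.1, Python 3.11.15). Calculations were tested on simulated data. The members and lists were chosen with earlier results of these data known. Named genes are the 9 members, Mmp9, the first 3 entries and the 6 most different compared genes of each list, and the 2 nearest genes of each member past 2-fold with a mean of at least 5; others were chosen after their values were seen. Cebpd had no row and was not analysed here. Some genes of the lists are not reported here. Positions and lengths are from GENCODE M21 on GRCm38, another build than that of the alignment. Other settings were a pseudocount of 0.1 or 5, a minimum mean of 5 or no filter, 3 scalings (the trimmed mean leaves out 30% of ratios and 5% of levels), and centring in 20 bins of GC content, known for 96.2% of compared genes.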

Additional observations from a re-analysis of the deposited data

How the results depend on the processing

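No paired analysis was possible because each group is 1 library, which also means that none could be left out. Over 8 alternatives the count of regulators past 2-fold was 2 higher and 0 lower, except 3 higher with equal sums, which added Bcl6. Of 55 alternative log2 ratios of the 7 compared regulators 35 stayed within the counting interval and 20 left it. No filter and a minimum mean of 5 leave the ratio of a gene unchanged by construction. Their values had to stay and are counted among the 35, which therefore overstates how stable the ratios were. Maf lay between 1.74 (pseudocount of 5) and 5.63 (pseudocount of 0.1), since the pseudocount acts on its low control level by construction, and Rbpj between 1.42 and 1.76. Cebpa turned to 0.35 with centring by GC content, and the cause was not tested. Over all genes, a pseudocount of 5 gave 255 higher and 603 lower, equal sums 674 and 684, and centring by GC content 682 lower. Of the counts in the 8 lists, 116 stayed within 1.5 times and 12 did not. Some counts, such as those of the BCL6 corepressors, were 0 under every setting and are among the 116. The 116 therefore overstates how stable the other counts were. Maf with 6 control reads, Id1 and Hes1 are limited by depth.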
